A study of Mus musculus with 12 samples.

Results

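The genes described here are 10 transcriptional regulators of mitochondrial biogenesis: the coactivators Ppargc1a and Ppargc1b, the nuclear receptors Ppara, Esrra, Esrrb, Esrrg and Rxrg, the nuclear factor Nrf1, and the mitochondrial transcription factors Tfam and Tfb1m. They were chosen by name for these roles with earlier results of these data known, so their counts below are no independent evidence of a direction, and all 10 were found among the 23337 genes counted. Their mRNA was measured in mouse cardiomyocytes (CMs), the beating muscle cells of the heart, with 3 samples in each of 4 groups. In the neonatal model an adeno-associated virus that expresses Cre from the cardiac troponin T promoter (AAV9-cTNT-Cre) was injected on postnatal day 1 (P1), with harvest on P14. In the adult model the injection was on P60, with harvest on P90. At both stages the knockout (KO) animals were homozygous for a floxed allele of Srf, which encodes the transcription factor serum response factor. The control (CTRL) animals received the same Cre virus and were Srf-flox/+, so that their transduced CMs kept an intact copy. All animals also carried a fluorescent reporter that Cre switches on. Per the study's methods the dose was low, so that only a minority of CMs in each heart was transduced, the mice were of mixed background, and fluorescent CMs were sorted from the heart apex. Nothing in the labels ties a sample to a separate litter or culture, so p-values measure the spread between these samples.

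Mitochondrial biogenesis needs the nuclear and the mitochondrial genome to be transcribed together. The coactivators PGC-1α (Ppargc1a) and PGC-1β (Ppargc1b) bind no DNA themselves and act through nuclear receptors, chiefly PPARα, which drives fatty acid oxidation genes, and the estrogen-related receptors ERRα, ERRβ and ERRγ, which drive oxidative phosphorylation genes. RXRγ (Rxrg) is a retinoid X receptor, the family with which PPARα must pair to bind DNA. NRF1 and the ETS factor GABP act at the promoters of respiratory chain genes and of Tfam, and TFAM then packages mitochondrial DNA and starts its transcription, while TFB1M methylates the RNA of the small mitochondrial ribosomal subunit. In the heart these genes are known for the switch after birth from glucose to fatty acids as the main fuel.

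Some of these control elements can be read directly in the promoters. RefSeq promoter windows (build GRCm38.p6, the assembly named mm10, from 250 bases before to 50 after a start site) were matched for 9 of the 10 genes and hold 15 start sites. Ppargc1b has no entry. Both strands were searched for the CArG box, to which serum response factor binds, for the NRF1 element (GCGCA followed at once by TGCGC), the ETS element CCGGAAGT, the ERR element TNAAGGTCA and the cyclic AMP element TGACGTCA. The sequences below show the promoters with a match, the promoters of Rxrg, whose level differed most in the neonatal KO, and the Srf promoter as a reference for the CArG box, with matches in capitals.
Ppara, chr15:85735735-85735764, plus strand: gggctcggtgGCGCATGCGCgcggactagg
Tfam, chr10:71238073-71238102, minus strand: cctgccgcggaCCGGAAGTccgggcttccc
Srf, chr17:46556200-46556259, minus strand: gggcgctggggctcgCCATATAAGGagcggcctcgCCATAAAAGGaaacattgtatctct
Rxrg, the first start, chr1:167598212-167598361, plus strand: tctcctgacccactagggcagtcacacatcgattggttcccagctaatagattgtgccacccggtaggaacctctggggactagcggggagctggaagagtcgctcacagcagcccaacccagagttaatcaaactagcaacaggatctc
Rxrg, the other start, chr1:167618115-167618264, plus strand: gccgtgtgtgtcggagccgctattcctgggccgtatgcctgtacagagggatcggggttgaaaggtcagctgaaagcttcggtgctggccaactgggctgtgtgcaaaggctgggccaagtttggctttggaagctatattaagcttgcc
The Ppara stretch holds the NRF1 element, from -31 to -22 relative to the RefSeq start site of its window, and 0.971% of all 32851 promoter windows hold one. The counted Ppara gene begins at 85735564, upstream of this stretch, so the element lies inside the span of the counted gene. The Tfam stretch holds the ETS element, from -47 to -40, and 3.89% of all windows do. The Srf stretch holds 2 CArG boxes, from -82 to -73 and from -62 to -53, and 1.63% of all windows hold at least 1. A CArG box was found at 0 of the 15 start sites of the regulators, and so were the ERR element (1.28% of all windows) and the cyclic AMP element (1.79%). A match is a description of the letters in these windows only.

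The total count per sample lay between 9740389 and 23103460. Levels are given as CPM, counts scaled to the depth of each library, with TMM factors of all 12 libraries. Srf was 63.95, 57.1 and 49.4 CPM in the P14 CTRL samples and 32.1, 27.5 and 9.75 in P14 KO, and 71.2, 59.1 and 81.1 in P90 CTRL against 32.9, 28.9 and 28.1 in P90 KO. The groups did not overlap at either stage. Its log2 fold change was -1.30 at P14 (adjusted p = 0.0628 by edgeR's quasi-likelihood test with Benjamini-Hochberg adjustment, used for every adjusted p below; 0.0220 with the replicate number as a block) and -1.23 at P90 (adjusted p = 0.00347). The counts cover all exons of Srf, so reads from outside the deleted part count too. Summed over 8 CM marker genes, CPM ranged from 107000 to 121000 in P14 CTRL and from 76100 to 86000 in P14 KO, and 2 of the 8 (Myh6 and Atp2a2) passed the test, both lower in KO, while 7 of the 8 had a negative log2 fold change and 5 an unadjusted p under 0.05. Among those that did not pass, Tnni3 was 4963 to 6956 CPM in CTRL and 3918 to 4442 in KO, and Actn2 was 5264 to 5525 in CTRL and 6224 to 6822 in KO, both without overlap. The summed fibroblast, endothelial and immune markers overlapped between KO and CTRL at P14, with fibroblast sums of 70.1 to 166 against 96.1 to 183 CPM, endothelial sums of 206 to 408 against 233 to 351, and immune sums of 4.95 to 8.64 against 7.5 to 10.7. The 5 mural markers summed to 77.8 to 169 in CTRL and 191 to 203 in KO, and without Cspg4, the only one of them called higher, to 46.0 to 104 and 59.9 to 88.6. Of 5 adipocyte markers only Cidea was above a count of 8 in any library, at a summed 70.3 to 77.5 CPM in P14 CTRL and 108 to 124 in P14 KO. Of the erythroid markers, the 4 globin genes are listed at 0 in all 12 libraries, so the list rests on Alas2 alone, at no more than 2.39 CPM. The part of these marker differences in the results at P14 was not tested. In sorted bulk samples fewer cells of a type and less RNA per cell cannot be told apart.

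**Figure D1:**
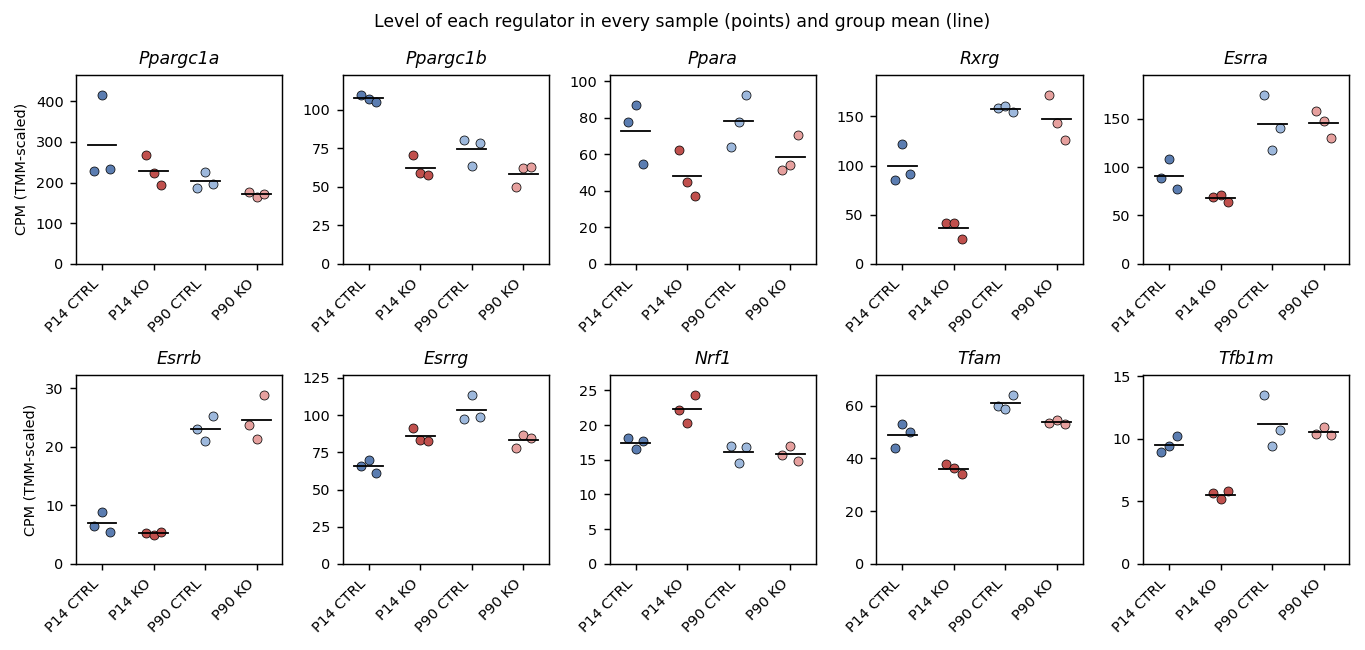
CPM of each of the 10 regulators in every sample, with 1 panel per gene, 3 points per group and a line at the group mean, on axes that start at 0. The 3 P14 KO points of Rxrg, between 25.3 and 41.6 CPM, lie below all points of the other groups, while its P90 CTRL and P90 KO points overlap.

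The regulators differed widely in level in the control CMs. Per length of transcript (RPKM), Ppargc1a (45.1 ± 16.5, SD, n = 3), Rxrg (42.1 ± 8.24) and Esrra (40.7 ± 7.09) were the highest in P14 CTRL, and these 3 did not differ beyond their spread. Ppargc1b followed at 29.3 ± 0.64 RPKM. Tfam (12.5 ± 1.17), Esrrg (11.7 ± 0.73) and Ppara (9.70 ± 2.22) came next and overlapped in their spread, then Tfb1m at 7.14 ± 0.50. Nrf1 (3.26 ± 0.15 RPKM) and Esrrb (1.51 ± 0.38) were the lowest. In P90 CTRL the order began with Rxrg (66.7 ± 1.34 RPKM) and Esrra (64.3 ± 12.9), with Ppargc1a at 31.3 ± 3.24.

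In neonatal CMs, Srf KO came with lower mRNA of the receptor gene Rxrg and the coactivator gene Ppargc1b. The mitochondrial factor genes Tfb1m and Tfam were also lower, but their calls rested more on the fit. Of the 10 regulators, 4 fell (Rxrg, Ppargc1b, Tfb1m and Tfam) and 0 rose at an adjusted p under 0.05, where 8.59% of the 12546 genes tested were called, 4.6% lower and 3.99% higher. With the replicate number as a block 4 were called as well, but Ppara (adjusted p = 0.0411) took the place of Tfam (adjusted p = 0.0526). The KO and CTRL samples did not overlap for 5 regulators that were lower and 2 that were higher in KO, where 16.7% and 16% of all genes tested were so placed. The median log2 fold change of the 10 was -0.44, beside 0.00 for all genes.

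Among the coactivators, Ppargc1b was 109.6, 107 and 105 CPM in the 3 P14 CTRL samples and 70.5, 58.6 and 57.7 in P14 KO. The CTRL samples lay close together and every KO sample was below them. Its log2 fold change was -0.79 ± 0.11 (SE, adjusted p = 0.0104). The gene lies on chromosome 18 from 61298136 to 61400431 (mm10, minus strand). Ppargc1a was 227, 416 and 234 CPM in P14 CTRL and 268, 223 and 195 in P14 KO. CTRL replicate 2 stood well above the other samples and the groups overlapped (log2 fold change -0.36 ± 0.24, adjusted p = 0.402). It lies on chromosome 5 from 51454249 to 51553921 (minus strand).

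Rxrg showed the largest difference of the 10. It was 85.8, 122 and 91.1 CPM in P14 CTRL and 41.6, 41.4 and 25.3 in P14 KO, so that every KO sample was far below every CTRL sample. Its log2 fold change was -1.47 ± 0.22 (adjusted p = 0.0116). Rxrg lies on chromosome 1 from 167598362 to 167639623 (plus strand). Rxra, the retinoid X receptor found in most tissues, was 64.2, 48.3 and 55.3 CPM in P14 CTRL and 54.3, 47.5 and 38.96 in P14 KO, which overlap.

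Ppara, on chromosome 15 from 85735564 to 85806851 (plus strand), was 77.5, 86.98 and 54.5 CPM in P14 CTRL and 62.5, 44.9 and 37.3 in P14 KO. The groups overlapped through KO replicate 1 and CTRL replicate 3. Its log2 fold change was -0.60 ± 0.22 with adjusted p = 0.138. The blocked fit gave -0.61 with adjusted p = 0.0411, past the threshold.

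The 3 estrogen-related receptors did not share a direction. Esrra (chromosome 19, 6910977 to 6921808, minus strand) was 88.7, 108 and 76.9 CPM in P14 CTRL and 69.3, 71.1 and 64.3 in P14 KO, without overlap (log2 fold change -0.43 ± 0.14, adjusted p = 0.0960). Of its exons 50 bp, or 2.23%, overlap Trmt112 on the other strand. Esrrb (chromosome 12, 86361117 to 86521628, plus strand), the least expressed, was 6.53, 8.903 and 5.44 CPM in CTRL and 5.27, 5.03 and 5.51 in KO, which overlap (log2 fold change -0.41 ± 0.23, adjusted p = 0.312). Esrrg (chromosome 1, 187609006 to 188214884, plus strand) was 65.6, 69.6 and 61.4 CPM in CTRL and 91.4, 83.5 and 82.8 in KO. Every KO sample of Esrrg was above every CTRL sample, and the difference was just short of the threshold (log2 fold change 0.39 ± 0.10, adjusted p = 0.0541; 0.0505 with the block).

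Of the factors closest to the mitochondrial genome, Tfb1m (chromosome 17, 3519256 to 3557713, minus strand) was 8.92, 9.403 and 10.2 CPM in P14 CTRL and 5.69, 5.17 and 5.81 in P14 KO. The groups were well apart, although on counts of only 175 to 190 and 107 to 115 per library (log2 fold change -0.78 ± 0.17, adjusted p = 0.0284). Its exons share 142 bp, 10.6% of their length, with Tiam2 on the other strand, and the strand setting of the counting is not given in the sources used here. Tfam (chromosome 10, 71225477 to 71238044, minus strand) was 44.04, 52.97 and 50.2 CPM in CTRL and 37.7, 36.3 and 34.2 in KO, with no overlap. Its log2 fold change was -0.45 ± 0.11 with adjusted p = 0.0479, and with the block adjusted p = 0.0526, no longer past the threshold. Nrf1 (chromosome 6, 30047988 to 30153458, plus strand) went the other way, with 18.1, 16.6 and 17.7 CPM in CTRL and 22.2, 20.3 and 24.3 in KO. All KO samples of Nrf1 were above CTRL, and the difference did not pass the test (log2 fold change 0.35 ± 0.13, adjusted p = 0.123).

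Apart from that of Rxrg, the neonatal calls depended on the fit or on single libraries. Rxrg was called in each of the 14 alternative fits, Ppargc1b in 12, Tfb1m in 8 and Tfam in 6, all with the same sign as in the values above. Regulators that did not pass as reported were called in some, Esrrg in 3 (adjusted p down to 0.0126), Ppara in 2 and Esrra in 1. Without P14 KO replicate 1 only 2 of the 10 regulators were called, and without P14 KO replicate 2 or replicate 3 only 1.

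**Figure D2:**
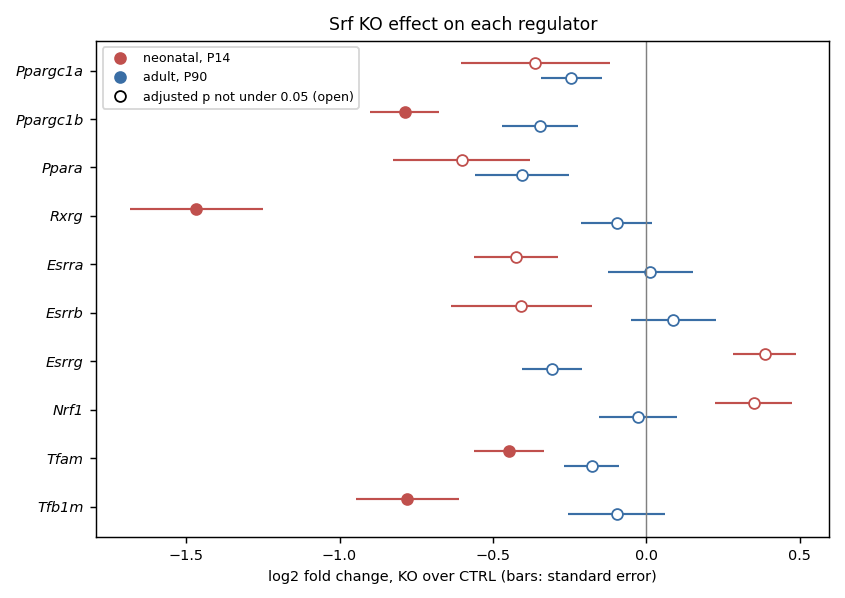
Log2 fold change of KO over CTRL for each regulator in neonatal (red) and adult (blue) CMs, with bars of 1 standard error; filled points have an adjusted p under 0.05. The 4 filled points are neonatal Ppargc1b, Rxrg, Tfam and Tfb1m, and Esrrg lies at 0.39 in neonatal and at -0.31 in adult CMs.

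In adult CMs, 0 of the 10 regulators passed the test, against a background of 0.39% of 11808 genes tested, and 4 had an unadjusted p under 0.05 (Ppargc1a, Ppargc1b, Ppara and Esrrg), where 16.2% of all genes tested did. DESeq2 also called 0, but Ppara was called in 2 of the 14 alternative fits (adjusted p down to 0.0232). These were the fit without the low-count filter and that with the replicate block. The KO samples were below all CTRL samples for Ppargc1a, Ppargc1b, Esrrg and Tfam, where 11.2% of all genes tested were so placed, and above them for 0. CM marker sums were lower in adult KO libraries, at 100382 to 105956 CPM, than in their controls, at 117477 to 130402, without overlap. Of the 8 CM markers 0 passed the test, 6 had an unadjusted p under 0.05 and 4 had a negative log2 fold change. The sum is weighted to the markers with the highest CPM and hides that the list went both ways. Lower in every KO sample were Myh6 (52295 to 60717 CPM in CTRL, 36981 to 42712 in KO), Atp2a2, Ryr2 and Ttn. Higher in every KO sample were Tnnt2 (9395 to 10454 in CTRL, 11402 to 13024 in KO), Tnni3 and Actn2, while Pln overlapped. The adipocyte sum was higher in KO (58.8 to 68 CPM) than in CTRL (49.1 to 49.7), but it rests on Cidea (48.4 to 49.7 CPM in CTRL). Sums of fibroblast, endothelial, mural and immune markers overlapped. The part of these marker differences in the adult results was not tested.

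Neither adult coactivator passed the test. Ppargc1a was 187, 227 and 196 CPM in P90 CTRL and 176, 164 and 172 in P90 KO (log2 fold change -0.24 ± 0.10, adjusted p = 0.262). Ppargc1b was 80.6, 63.4 and 78.5 CPM in CTRL and 50.1, 62.1 and 62.7 in KO (log2 fold change -0.35 ± 0.12, adjusted p = 0.212). Both were lower in every KO sample than in any CTRL sample.

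Among the adult receptors, Rxrg was 159, 160.2 and 154 CPM in P90 CTRL and 172, 143 and 126 in P90 KO, with KO on both sides of CTRL (log2 fold change -0.10 ± 0.12, adjusted p = 0.724). Ppara was 63.9, 77.5 and 92.6 CPM in CTRL and 51.3, 54.4 and 70.5 in KO, which overlap (log2 fold change -0.41 ± 0.15, adjusted p = 0.236). Esrrg was 97.6, 113 and 98.9 CPM in CTRL and 78.1, 86.5 and 84.8 in KO. All adult KO samples of Esrrg were thus below CTRL, the opposite placement to P14 (log2 fold change -0.31 ± 0.10, adjusted p = 0.166). Esrra was 175, 117 and 141 CPM in CTRL and 158, 148 and 130.3 in KO, and Esrrb 23.1, 20.98 and 25.2 against 23.7, 21.3 and 28.8. Both of these overlapped, with log2 fold changes of 0.01 ± 0.14 and 0.09 ± 0.14.

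For the mitochondrial factors, Tfam was 60.03, 58.9 and 64.01 CPM in P90 CTRL and 53.6, 54.5 and 53.1 in P90 KO (log2 fold change -0.18 ± 0.09, adjusted p = 0.355). Tfb1m was 13.5, 9.46 and 10.7 CPM against 10.4, 10.9 and 10.3 (log2 fold change -0.10 ± 0.16). Nrf1 was 17.02, 14.6 and 16.8 CPM against 15.6, 17.02 and 14.8 (log2 fold change -0.03 ± 0.13). The groups of the last 2 overlapped.

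Whether the KO effect differed between the stages was tested directly, as the neonatal minus the adult log2 fold change in a fit of all 12 samples. It passed the test for 2 of the 10 regulators, 1 in each direction, against a background of 1.78% of 12841 genes, 0.958% negative and 0.818% positive. Rxrg fell more in neonatal CMs, by -1.36 ± 0.26 (adjusted p = 0.0257). Esrrg had the more positive neonatal effect, by 0.70 ± 0.13 (adjusted p = 0.0252). For the other regulators called at P14 the difference did not pass, with -0.68 ± 0.21 for Tfb1m (adjusted p = 0.115), -0.43 ± 0.17 for Ppargc1b (adjusted p = 0.194) and -0.26 ± 0.13 for Tfam (adjusted p = 0.301). The exons of Esrrg sum to 5580 bp, and with a correction for transcript length its difference was 0.49 (adjusted p = 0.0646), while that of Rxrg was -1.33 (adjusted p = 0.0252). Leaving out either of P90 CTRL replicates 2 and 3 or P90 KO replicates 1 and 2 left 0 of the 10 called, and leaving out any P14 KO replicate or P90 CTRL replicate 1 left 1.

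The comparison of P90 with P14 shows how these regulators change in level as CMs mature; stage cannot be told apart from the separate tables, injection ages and handling of the 2 experiments. In CTRL CMs 4 of the 10 rose and 1 fell, against a background of 29.3% of 12294 genes (14.5% higher and 14.9% lower). The P14 and P90 samples did not overlap for 5 that were higher and 2 that were lower at P90, where 22.1% and 22.8% of all genes tested were so placed. Esrrb rose most, from 5.44 to 8.903 CPM at P14 to 20.98 to 25.2 CPM at P90 (log2 fold change 1.73 ± 0.20, adjusted p = 0.000499). Rxrg (0.67 ± 0.14, adjusted p = 0.00769), Esrra (0.66 ± 0.17, adjusted p = 0.0200) and Esrrg (0.66 ± 0.11, adjusted p = 0.00310) also rose, so that all 3 estrogen-related receptors were higher at P90. Ppargc1b fell (-0.53 ± 0.12, adjusted p = 0.0118). Ppargc1a (-0.52 ± 0.22, adjusted p = 0.103), Tfam (0.32 ± 0.11, adjusted p = 0.0635), Tfb1m (0.25 ± 0.18), Nrf1 (-0.11 ± 0.14) and Ppara (0.10 ± 0.19) did not pass. Summed fibroblast markers were 70.1 to 166 CPM in P14 CTRL and 34.3 to 48.7 in P90 CTRL, and their part in these differences was not tested.

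In KO CMs 5 regulators were higher and 2 lower at P90 than at P14, against a background of 56.8% of 12417 genes (27.7% higher and 29.1% lower). The same 7 were without overlap between P14 and P90, where 31.1% of all genes tested were higher and 33.4% lower in this way. Esrrb (2.22 ± 0.15, adjusted p = 5.64e-06), Rxrg (2.03 ± 0.19, adjusted p = 3.49e-05), Esrra (1.10 ± 0.10, adjusted p = 2.26e-05), Tfb1m (0.93 ± 0.14, adjusted p = 0.000449) and Tfam (0.58 ± 0.08, adjusted p = 0.000369) were higher. Nrf1 (-0.49 ± 0.12, adjusted p = 0.00611) and Ppargc1a (-0.42 ± 0.12, adjusted p = 0.0143) were lower. Ppara (0.29 ± 0.19), Ppargc1b (-0.09 ± 0.12) and Esrrg (-0.04 ± 0.09) did not pass. Marker sums also differed without overlap between P14 KO and P90 KO, with 96.1 to 183 against 35.6 to 48.3 CPM for fibroblasts, 191 to 203 against 68 to 99.8 for mural cells and 76145 to 85984 against 100382 to 105956 for CMs, and their part in these differences was not tested. These comparisons share samples with the KO comparisons, so their values are set side by side and not correlated. For Rxrg the P14 KO samples at 25.3 to 41.6 CPM lay below P14 CTRL at 85.8 to 122, and P90 CTRL at 154 to 160.2 lay above it. For Ppargc1b both P14 KO at 57.7 to 70.5 CPM and P90 CTRL at 63.4 to 80.6 lay below P14 CTRL at 105 to 109.6. For Esrrg both P14 KO at 82.8 to 91.4 CPM and P90 CTRL at 97.6 to 113 lay above P14 CTRL at 61.4 to 69.6.

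The 3 estrogen-related receptors bind the same element, and their proportions were described as shares of their summed RPKM, a description chosen after their values were seen. Esrra made up 75.3% ± 1.65 (SD, n = 3) of the sum in P14 CTRL and 64.8% ± 1.40 in P14 KO. Esrrg made up 21.9% ± 1.92 in P14 CTRL and 32.8% ± 1.30 in P14 KO, where its 3 samples (33.8%, 31.3% and 33.2%) were above those of every other group. In adult CMs the share of Esrrg was 21.5% ± 4.53 in CTRL and 17.6% ± 1.77 in KO, which overlap. A permutation test of the log2 ratio of Esrrg to Esrra gave p = 0.1 at P14, the lowest it can reach with 3 samples per group. Neither this nor the difference between the stages passed after adjustment over 15 tests. The transcript length correction was not applied to these shares. Esrrb made up 2.76% ± 0.28 in P14 CTRL and 5.74% ± 0.71 in P90 CTRL and was the smallest share in all 12 samples.

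**Figure D3:**
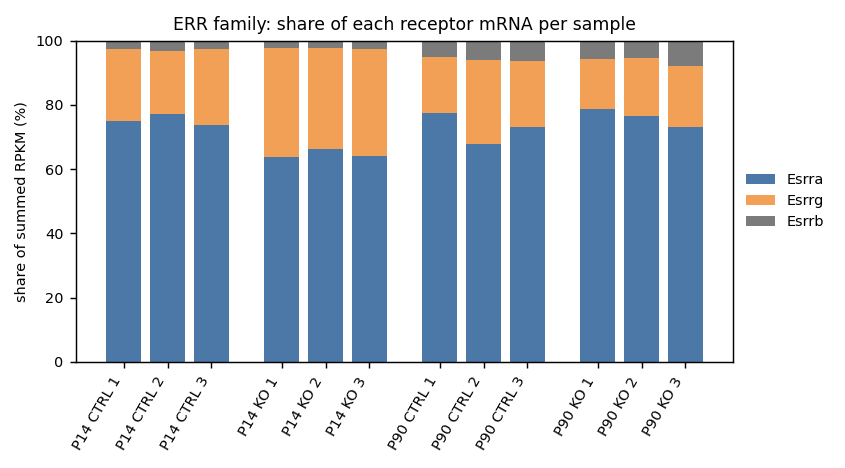
Share of each estrogen-related receptor mRNA in the family's summed RPKM, in percent, as a stacked bar for each of the 12 samples. Esrrg takes 31.3% to 33.8% in the 3 P14 KO samples and 15.6% to 26.3% in the other 9.

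Other genes of the pathway were taken from 4 lists. Like the regulators, the lists were chosen with earlier results of these data known, so their counts are no independent evidence of a direction. Of 16 partner receptors and factors (among them Rxra, Pparg, Gabpa and the Mef2 genes), 0 passed the test in neonatal KO CMs and 2 had an unadjusted p under 0.05, where 25.6% of all genes tested did, with a median log2 fold change of -0.04. Over all genes tested at P14, 4.6% were called lower and 3.99% higher. The list of 20 further coactivators and corepressors also holds enzyme genes such as Sirt3 and Prkaa2. Of these 20 genes 2 fell and 0 rose, too few to set the list apart, with a median of 0.04. The 2 were Cited4, which binds CREB-binding protein, with -1.39 ± 0.18 (adjusted p = 0.00800), and Sirt3, the main mitochondrial deacetylase, with -0.66 ± 0.11 (adjusted p = 0.0145). Cited4 was 53.6, 39.9 and 55.98 CPM in P14 CTRL and 20.2, 21.8 and 15.3 in P14 KO, and Sirt3 was 66.4, 76.4 and 66.6 against 45.1, 42.6 and 45.5. Neither gene overlapped between the groups.

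The machinery of mitochondrial DNA and RNA was lower in part. The list for transcription and replication of mitochondrial DNA held 29 symbols, of which 18 were matched, 6 are newer names of matched genes and 5 were not matched. Of the 18 genes, 4 fell and 0 rose in neonatal KO, where 4.6% of all genes tested fell and 3.99% rose, with a median of -0.38. The largest were Tbrg4 (-0.75 ± 0.17, adjusted p = 0.0357), which acts on mitochondrial mRNA, Lrpprc (-0.69 ± 0.13, adjusted p = 0.0216), which stabilizes mitochondrial mRNA, and Mterfd3 (-0.66 ± 0.14, adjusted p = 0.0255), of the mitochondrial termination factor family.

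The textbook targets of PPAR, ERR and PGC-1 were the longest list and held the most calls. Of these 30 genes 14 fell and 1 rose in neonatal KO, with a median of -0.57. Of all genes tested 4.6% fell and 3.99% rose. Cytochrome c (Cycs) was 309, 552 and 291 CPM in P14 CTRL and 192, 207 and 169.8 in P14 KO (log2 fold change -1.02 ± 0.24, adjusted p = 0.0365). The uncoupling protein gene Ucp3 was 147, 197 and 183 CPM against 108, 66.7 and 98.5 (log2 fold change -0.95 ± 0.19, adjusted p = 0.0247). Its relative Ucp2 was the 1 gene that rose, from 569, 430.3 and 810.1 CPM to 1015, 1070.3 and 1264 (log2 fold change 0.89 ± 0.22, adjusted p = 0.0442). In all 3 the KO and CTRL samples were apart.

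In adult KO CMs 0 genes of the 4 lists passed the test, with medians of -0.12 for partners, -0.15 for coactivators and corepressors, -0.07 for the mitochondrial DNA genes and 0.02 for the targets. With an unadjusted p under 0.05 the lists held 3 of 16, 3 of 20, 1 of 18 and 3 of 30 genes, where 16.2% of all genes tested were so placed, so that none of the lists stood clearly above it. The difference between the stages passed for 1.78% of all 12841 genes tested, 0.958% with the lower neonatal effect. It passed for 0 genes of the first 3 lists, which at that share sets none of these short lists apart. It passed for 5 of the 30 targets, all with the lower neonatal effect. The largest were Sdhb, a subunit of complex II (-0.81 ± 0.17, adjusted p = 0.0351), Acadvl (-0.79 ± 0.15, adjusted p = 0.0257) and Acadm (-0.78 ± 0.17, adjusted p = 0.0437), the very-long-chain and medium-chain acyl-CoA dehydrogenases. Sdhb was 1332, 1698 and 1454 CPM in P14 CTRL and 912, 834 and 762 in P14 KO, and 2147, 1946 and 2122 in P90 CTRL against 2273, 2002 and 1824 in P90 KO, so that it was apart at P14 and overlapped at P90.

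**Figure D4:**
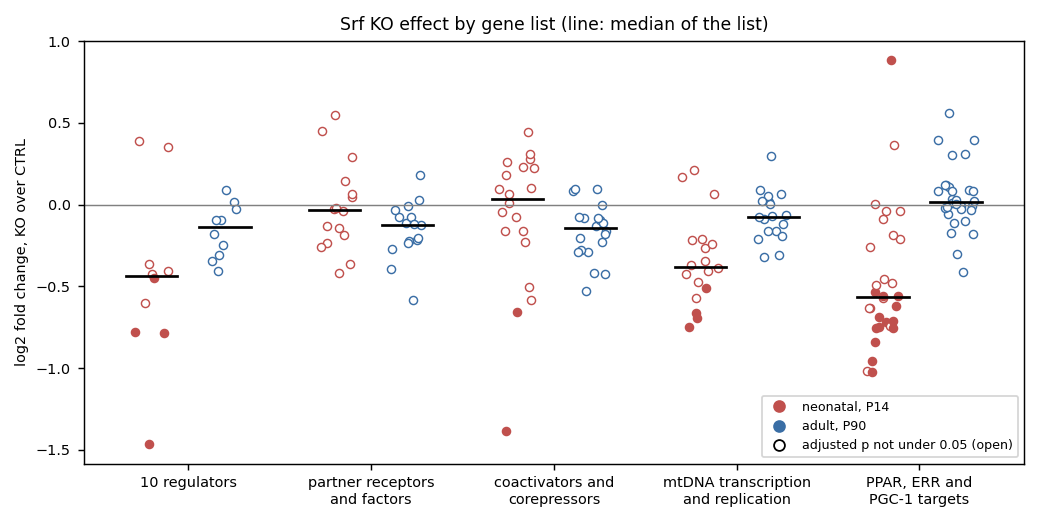
Log2 fold change of KO over CTRL for the genes of each list, neonatal in red and adult in blue, with a line at the median of the list; filled points have an adjusted p under 0.05. The neonatal medians are -0.44 for the 10 regulators, -0.38 for the mitochondrial DNA genes and -0.57 for the targets, and all adult points are open.

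Between P14 and P90 in CTRL CMs 6 of the 30 targets were higher and 7 lower, where 14.5% of all genes tested were higher and 14.9% lower. Among the largest changes were those of Ucp2 (-3.42 ± 0.29, adjusted p = 0.000141) and Angptl4, an inhibitor of lipoprotein lipase (-2.98 ± 0.58, adjusted p = 0.00561). Of the 18 mitochondrial DNA genes 5 rose and 1 fell, led by the polymerase gene Polg (0.87 ± 0.13), Tfb2m (0.83 ± 0.13) and the helicase gene Peo1 (0.69 ± 0.11). Of the 16 partners 4 rose and 1 fell, led by Pparg (1.06 ± 0.26), Rxra (0.57 ± 0.14) and Gabpa (0.56 ± 0.16). Of the 20 genes in the list of coactivators, corepressors and enzymes 2 rose and 2 fell, shares below those of all genes. Lpin1 was at 0.72 ± 0.20, Crebbp at -0.57 ± 0.18 and Prkaa2 at 0.44 ± 0.13.

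In KO CMs 21 of the 30 targets were higher at P90 than at P14 and 6 were lower, where 27.7% of all genes tested were higher and 29.1% lower. The lower ones included Ucp2 (-3.75 ± 0.16) and Angptl4 (-3.64 ± 0.33). The 18 mitochondrial DNA genes had 11 higher and 1 lower, led by Mterfd3 (1.15 ± 0.11), Tfb2m (1.13 ± 0.12) and the topoisomerase gene Top1mt (1.08 ± 0.19). The 16 partners had 4 higher and 4 lower, close to the shares of all genes, led by Gabpb2 (-0.99 ± 0.15), Nfe2l2 (-0.82 ± 0.08) and Thrb (0.70 ± 0.11). The 20 genes in the list of coactivators, corepressors and enzymes had 4 higher and 7 lower, led by Crebbp (-1.30 ± 0.14), Lpin1 (1.29 ± 0.14) and Cited4 (0.70 ± 0.17).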

How the data were processed

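RNA of 12 sorted CM samples was amplified with SMART-Seq v4 and made into libraries with Nextera XT. Per the labels, the authors' processing notes name CASAVA 1.8, STAR 2.5.3a, featureCounts of Subread 1.5.2 and the build mm10, and the authors deposited raw counts per gene, not normalized, in 1 table per stage, with the exon length of each gene. Neither the strand setting nor the handling of multiply mapped reads is given in the sources used here, so counts of overlapping genes are uncertain. Amplified reads without molecular identifiers are not independent molecules.

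Samples were grouped by their labels. Each comparison was fitted on its own samples (the stage by genotype interaction on all 12) in R 4.3.3 with edgeR 4.0.16 on all genes: filterByExpr, TMM factors, the quasi-likelihood F-test and Benjamini-Hochberg adjustment at 0.05. The standard error is the absolute log2 fold change divided by the square root of F. CPM and RPKM used TMM factors of all 12 libraries. The authors used DESeq2; DESeq2 1.42.0 was run here as an alternative, as were other size factors, no filter on low counts, a transcript length correction (loess span 0.5), 1 fit of all samples, a replicate block, leaving out each library, and, chosen after seeing the data, sex as a covariate. Sex was taken from Y-linked counts (100 or more): 1 of 3 samples was male in P14 CTRL, P14 KO and P90 CTRL, and 0 in P90 KO. The fits were tested on simulated data.

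KO and CTRL titles share replicate numbers, which are the only source of a pairing. At P14 same-numbered samples deviated together (r = 0.129, 0.122 and 0.444 across genes, each above 0.1), so blocked values are given there where a call changes. Replicates 1 and 2 correlated as well when crossed (0.163 and 0.140), so the numbers do not establish pairs. The main fits carry no block.

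The 10 regulators and the gene lists were chosen with earlier results of these data known. Besides the regulators and Srf, the text names from each list at most 3 genes per comparison, those past the threshold with the largest absolute log2 fold change; 1 gene under this rule is not reported here. Genes named as markers are checks, and Rxra beside Rxrg at P14 was chosen after its values were seen. Promoter sequences are from RefSeq.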

Additional observations from a re-analysis of the deposited data

Results flagged for a closer look

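The KO effects at the 2 stages differed for 7 of the named genes by the test of the interaction. Over all 12841 genes tested 1.78% passed. The list and marker genes among the 7 are given here because they passed, so the number 7 is no result. The neonatal minus the adult log2 fold change was 0.70 for Esrrg and -1.36 for Rxrg, and -0.81 for Sdhb, -0.79 for Acadvl and -0.78 for Acadm. Among the marker genes it was 1.42 for Cspg4 and -0.85 for Tnni3. Esrrg was higher in 3 of 3 neonatal and lower in 3 of 3 adult KO samples than in any CTRL sample of the same stage. Over all genes tested, 16% were so placed at P14 and 11.2% at P90. Within a stage its difference did not pass (adjusted p = 0.0541 at P14 and 0.166 at P90). Its interaction passed in 10 of 19 alternative fits. Groups of 3 samples are too small for the test of single outlying samples.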

How the results depend on the processing

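With sex as a covariate, chosen after seeing the data, 2 of the 10 regulators were called in neonatal KO (4 as reported). Leaving out 1 library gave 1 to 4 calls in neonatal KO, 0 in each adult fit, 0 to 2 for the interaction, 4 to 6 for CTRL and 6 to 8 for KO between stages. In adult KO, 1 was called without the low-count filter and 1 with the replicate block (Ppara in both, adjusted p = 0.0255 and 0.0232); the numbers did not pair the adult samples (r = 0.249, 0.0101 and 0.0687) nor those between stages. The replicate block left the neonatal count at 4 and the interaction at 2, and the counts between stages at 5 and 7. The length correction gave 1 for the interaction, and so did the length correction with the replicate block. Esrrg between stages in KO turned from -0.04 to 0.19 with the length correction (adjusted p = 0.0410). The cause of these changes was not tested. Over all genes, the calls were 1078 in neonatal KO as reported, 1788 by DESeq2, 2088 in 1 fit of all samples and 111 to 1004 with 1 library left out. For the interaction they were 228 as reported, 912 by DESeq2, 687 with the block, 474 without the filter, 86 with sex and 4 to 377 with 1 library left out. In adult KO they were 46 as reported, 351 by DESeq2, 655 with the block, 701 without the filter 3 in 1 fit of all samples, 84 with the length correction, 16 with sex and 6 to 51 with 1 library left out.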
